A study of Ovis aries with 7 samples.

Results

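NADPH oxidase subunit CYBA and the antioxidant enzymes SOD1, SOD2 and CAT were examined in the fetal sheep hypothalamus after a short bout of maternal hypoxia. All probes that the array files name or describe as 1 of these 4 genes were taken, which found 3 of the 4 genes among 985 genes with a name and 5 of 15008 distinct probes: 2 for CYBA, 1 for SOD1 and 2 for SOD2. No probe carried the name or the description of catalase, and a probe named CAT-1 is described as a cationic amino acid transporter, so CAT was not analysed here. CYBA was chosen by its levels on these arrays, for lower values in hypoxia than in control, so the hypoxia to control difference of CYBA is given as a description with no test.

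All 7 fetuses were studied in late gestation and carried long-term catheters. In the hypoxia group, 3 fetuses, the ewe breathed gas with a low partial pressure of oxygen for 30 min and then had 30 min of normoxia. In the control group, 4 age-matched fetuses, normoxia was kept for both periods. Whole hypothalamus was collected 60 min after the start, and total RNA was hybridised to 1-colour Agilent sheep arrays, 1 array per fetus. The labels give no genotype, breed or fetal sex, and the catheters were shared by both groups. The p-values below set the difference between groups against the spread between fetuses of a group. With 1 array per fetus, that spread includes the spread between arrays. For each probe, limma also draws that spread towards a value typical of all tested probes, so p-values and SEs do not rest on that probe alone.

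NADPH oxidases are membrane enzymes that pass electrons from NADPH to oxygen and so make superoxide. CYBA encodes p22phox, the small membrane subunit that forms cytochrome b558 with the catalytic subunit CYBB (NOX2) and is also a partner of NOX1 and NOX4. Superoxide dismutases turn superoxide into hydrogen peroxide, SOD1 in the cytosol with copper and zinc and SOD2 in mitochondria with manganese, and catalase breaks hydrogen peroxide down to water and oxygen. In brain, CYBB is best known from microglia, while CYBA is found in several cell types, among them neurons, endothelial cells and phagocytes.

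The probe sequences show how far the probes of 1 gene are separate measurements. Each is 60 bases long, is printed 5′ to 3′ as the array files give it, and has capitals for the bases it shares with the other probe of its gene.
CYBA, brighter probe: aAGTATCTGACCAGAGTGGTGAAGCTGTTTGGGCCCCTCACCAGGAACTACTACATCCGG
CYBA, other probe: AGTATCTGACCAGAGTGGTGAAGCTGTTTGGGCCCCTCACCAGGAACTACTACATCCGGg
SOD2, brighter probe: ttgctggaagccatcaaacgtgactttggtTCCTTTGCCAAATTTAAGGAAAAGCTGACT
SOD2, other probe: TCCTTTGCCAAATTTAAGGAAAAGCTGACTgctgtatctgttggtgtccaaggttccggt
The CYBA probes share 59 of 60 bases, so they read the same stretch of the transcript and count as 1 measurement made with 2 spots per array. The SOD2 probes share 30 of 60 bases. GC content was 53.3% and 55.0% in the CYBA probes and 41.7% and 45.0% in the SOD2 probes, against a median of 43.3% and a 95th percentile of 55.0% over all probes. The only SOD1 probe begins with the 30 bases tattatttgtctgaatttcgattctctcag and has 36.7% GC. The CYBA probes carry that symbol in the files and their description names only a sheep cDNA clone. The SOD1 probe is named by its description as sheep copper-zinc superoxide dismutase, and the SOD2 probes by a gene number that the RefSeq table of the ARS-UI_Ramb_v3.0 assembly pairs with SOD2. The files give no genome position for these probes, so none is printed.

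All 5 probes were measured well on every array. Their spots were well above background on 7 of 7 arrays, and 0 were saturated or marked as outliers. The mean signal of the brighter CYBA probe was 26.7 to 50.2 times the local background. That ratio was 801 to 1591 for SOD1 and 43.8 to 63.7 for the brighter SOD2 probe. The extraction software put the error of each processed signal at about 10.0%. Over the whole array, 83.1% to 84.8% of spots were well above background on hypoxia arrays, against 77.2% to 86.4% on control arrays. Of 14 listed hypothalamic genes, 9 were measured and 8 of these, OXT, POMC and AGRP among them, were well above background on all 7 arrays. Slide 1 held all 3 hypoxia arrays, slide 2 held control replicates 1 and 2, and slide 3 held control replicates 3 and 4, with a scan for each slide, so a difference between hypoxia and control cannot be told apart from one between slide 1 and the other slides.

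CYBA was lower in every hypoxia fetus than in every control fetus. Before any scaling, the processed signal of the brighter probe was 1410, 1358 and 1253 in hypoxia replicates 1 to 3, against 1713, 1681, 2243 and 2077 in control replicates 1 to 4. The groups did not overlap on this unscaled signal. For comparison between arrays, each level is given as the log2 processed signal minus the 75th percentile of its array, so that 0 marks a spot as bright as that percentile. On this scale the brighter probe had levels of -0.88, -0.70 and -0.91 in hypoxia replicates 1 to 3 and of -0.27, -0.27, -0.37 and -0.19 in control replicates 1 to 4. The highest hypoxia fetus, replicate 2, lay below the lowest control fetus, replicate 3. The means were -0.83 ± 0.11 in hypoxia and -0.28 ± 0.07 in control (SD, n = 3 and 4), a log2 difference of -0.55 (SE 0.10), or 1.47-fold lower in hypoxia.

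The second CYBA probe gave the same picture. Its levels were -1.0, -0.83 and -0.94 in hypoxia replicates 1 to 3 and -0.34, -0.27, -0.36 and -0.29 in control replicates 1 to 4. Here too the groups were apart, with means of -0.92 ± 0.08 in hypoxia and -0.32 ± 0.04 in control (SD, n = 3 and 4), a log2 difference of -0.61 (SE 0.09), or 1.52-fold lower. The levels of both probes correlated over the 7 arrays with r = 0.986, a description of 2 nearly identical probes on the same arrays. Groups that did not overlap, with hypoxia lower, were seen for 7.38% of the 12711 probes tested, and with hypoxia higher for 8.75%. A 2-sided unadjusted p under 0.05 from limma was seen with hypoxia lower for 6.91% of probes and with hypoxia higher for 8.75%. The balance depends on the scaling: with median scaling 1069 such probes were lower and 932 higher in hypoxia, and with quantile normalization 1032 and 914. The median log2 difference over all tested probes was 0.03, with a 10th percentile of -0.31 and a 90th percentile of 0.47.

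Both control slides gave a similar distance for CYBA. The brighter probe averaged -0.83 on the hypoxia slide, against -0.27 on control slide 2 and -0.28 on control slide 3. Hypoxia minus control was -0.56 with slide 2 alone and -0.54 with slide 3 alone, while slide 3 minus slide 2 was -0.02. The other probe gave -0.62 and -0.60. The log2 difference of the brighter probe stayed between -0.62 and -0.51 over all 20 alternative settings, leaving out any 1 array among them. CYBA was picked for lower values on these arrays and its groups did not overlap. Leaving out an array or a control slide therefore could not change its sign, and these values are no test of it. They do not separate hypoxia from slide 1 either.

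**Figure D1:**
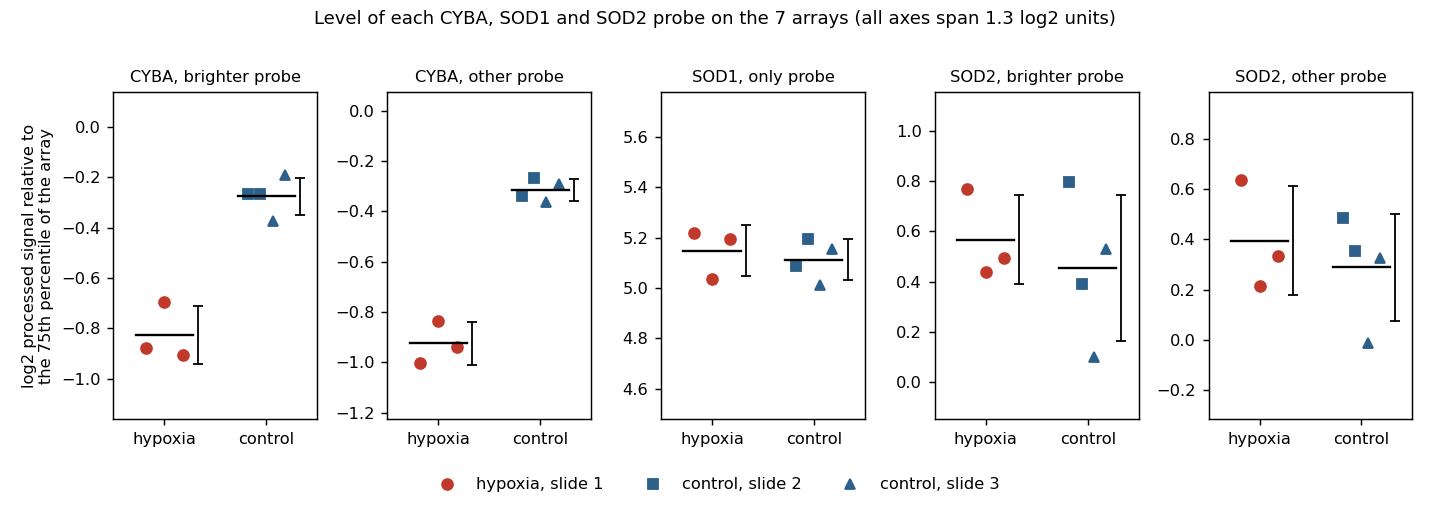
Level of each CYBA, SOD1 and SOD2 probe on every array, as log2 processed signal relative to the 75th percentile of the array, with hypoxia (slide 1, circles) left of control (slide 2 squares, slide 3 triangles), group means as lines and SD bars beside them. All panels span the same number of log2 units on axes of their own. Hypoxia points of both CYBA probes lie below all control points, and the groups overlap for SOD1 and SOD2.

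SOD1 differed by less than the spread between fetuses. Its probe had levels of 5.22, 5.03 and 5.19 in hypoxia replicates 1 to 3, against 5.09, 5.19, 5.01 and 5.16 in control replicates 1 to 4. The lowest value, in control replicate 3, and the highest, in hypoxia replicate 1, lay close together, and the groups overlapped. The means were 5.15 ± 0.10 in hypoxia and 5.11 ± 0.08 in control (SD, n = 3 and 4), a log2 difference of 0.04 (SE 0.10, limma adjusted p = 0.888). Its 95% interval ran from -0.20 to 0.27, which leaves room for a hypoxia to control ratio from 0.870 to 1.21.

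SOD2 varied more between fetuses and showed no difference beyond that spread. The brighter probe had levels of 0.77, 0.44 and 0.49 in hypoxia replicates 1 to 3 and of 0.80, 0.39, 0.10 and 0.53 in control replicates 1 to 4. Both the highest and the lowest fetus were controls. The means were 0.57 ± 0.18 in hypoxia and 0.46 ± 0.29 in control (SD, n = 3 and 4), a log2 difference of 0.11 (SE 0.18, limma adjusted p = 0.789) with a 95% interval from -0.30 to 0.53, or a ratio from 0.810 to 1.44. The other probe, with levels of 0.64, 0.21 and 0.34 in hypoxia replicates 1 to 3 and of 0.49, 0.35, -0.01 and 0.33 in control replicates 1 to 4, placed control replicate 3 lowest as well. Its log2 difference was 0.11 (SE 0.16, limma adjusted p = 0.774), and both probes correlated with r = 0.931 over the 7 arrays. Without control replicate 3 the difference of the brighter probe was -0.01, and against control slide 2 alone it was -0.03. Without control replicate 4, also on slide 3, it was 0.14, and without hypoxia replicate 1 it was 0.01. Its small positive sign therefore depends on control replicate 3.

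From fetus to fetus, CYBA correlated only weakly with either dismutase. Over the 7 arrays, r was -0.28 (rho -0.25) between CYBA and SOD1 and -0.19 (rho 0.14) between CYBA and SOD2. With the group means removed, r was -0.20 and 0.18. SOD1 and SOD2 had r = 0.49 (rho 0.36), and 0.45 with the group means removed. These are descriptions over 7 points that share the scaling of each array.

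The other NADPH oxidase genes measured did not have lower means in hypoxia. Of 16 listed subunit genes, 6 were measured, CYBA included, and the other 5 had log2 differences above 0, although NOX1 had -0.17 with quantile normalization and RAC1 had -0.0032 with median scaling. Differences above 0 were also seen for 6955 of all 12711 tested probes. In limma, 0 of these 5 genes passed an adjusted p under 0.05, against 0.0157% of all tested probes, 2 of 12711. NOX4 alone had an unadjusted p under 0.05, with hypoxia higher, as had 8.75% of all tested probes.

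CYBB, the catalytic partner of CYBA in phagocytes and microglia, had levels of -4.47, -3.98 and -3.15 in hypoxia replicates 1 to 3, against -4.46, -4.31, -5.20 and -4.30 in control replicates 1 to 4. Hypoxia replicate 3 was the highest and control replicate 3 the lowest, and the groups overlapped. The log2 difference was 0.70 (SE 0.35, limma adjusted p = 0.364), and it was 0.34 without hypoxia replicate 3 and 0.39 with normexp. Another pair of CYBB probes was not well above background on any array, so this value rests on 1 of 3 probes.

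NOX4, an oxidase known for making mainly hydrogen peroxide and for needing p22phox, had levels of -5.30, -5.59 and -5.27 in hypoxia replicates 1 to 3, against -5.96, -6.33, -5.94 and -5.82 in control replicates 1 to 4. Every hypoxia fetus lay above every control fetus, opposite to CYBA, as was seen for 8.75% of all tested probes. The log2 difference was 0.63 (SE 0.15), with an unadjusted p of 0.00392 and an adjusted p of 0.172 in limma, so it did not pass the threshold. The probe is dim, and with normexp background correction the difference was 0.20. The second NOX4 probe, well above background on 5 of 7 arrays, had 0.27 (SE 0.27, limma adjusted p = 0.652).

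NOX5, a calcium-regulated oxidase that works without p22phox, had levels of -1.03, -0.81 and -1.0 in hypoxia replicates 1 to 3, against -1.52, -1.33, -1.20 and -0.94 in control replicates 1 to 4. Control replicate 4 reached into the hypoxia range, and the log2 difference was 0.30 (SE 0.15, limma adjusted p = 0.38). It was 0.48 against control slide 2 alone and 0.12 against control slide 3 alone, and a second NOX5 probe had 0.19. RAC1, the small GTPase that activates NOX1 and NOX2 and has many other roles, had levels of 3.40, 3.63 and 3.41 in hypoxia replicates 1 to 3 and of 3.44, 3.39, 3.53 and 3.44 in control replicates 1 to 4. Hypoxia replicate 2 was the highest and the groups overlapped otherwise, with a log2 difference of 0.03 (SE 0.10, limma adjusted p = 0.914). NOX1, best known from colon epithelium and vessel walls, was well above background on 2 hypoxia and 2 control arrays, with levels from -7.69 to -6.35 in hypoxia and from -7.65 to -6.12 in control and a log2 difference of 0.12 (SE 0.43, limma adjusted p = 0.916).

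**Figure D2:**
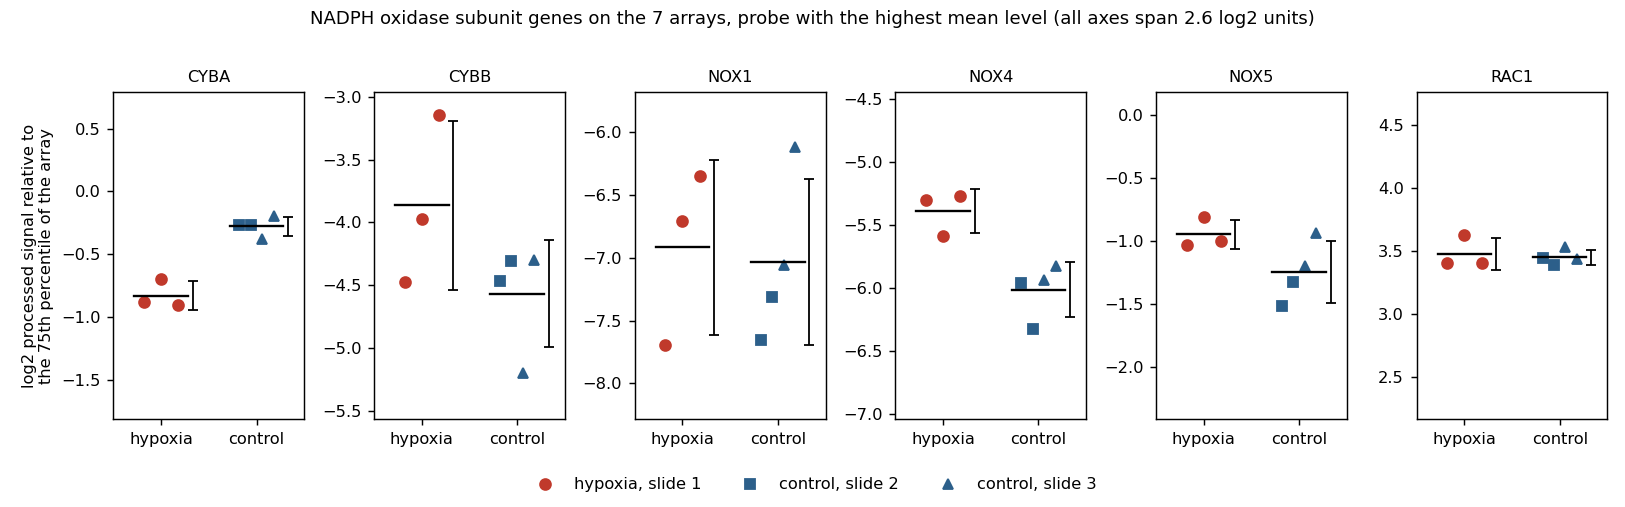
Level of CYBA and 5 other NADPH oxidase genes on every array, as log2 processed signal relative to the 75th percentile of the array, with hypoxia left of control, group means as lines and SD bars. All panels span the same number of log2 units, and levels are not comparable between genes. CYBA is the only panel of the 6 in which all hypoxia points lie below all control points, and in the NOX4 panel all of them lie above.

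Redox genes were measured for only part of each pathway. Over all 6 redox lists, 25 of 92 listed genes other than CYBA were tested, 18 with a log2 difference above 0 and 7 below 0, and their median was 0.12 against 0.03 over all tested probes. In limma 0 of the 25 passed an adjusted p under 0.05, the smallest adjusted p being 0.145. At an unadjusted p under 0.05 with the brightest probe of each gene, 2 of 25 (NOX4 and GSTM3) were higher and 1 of 25 (IDH1) lower. These shares were near the 8.75% and 6.91% of all tested probes. NOX4, GSTM3 and IDH1 were also the ones whose groups did not overlap. The count depends on the probe taken. Other probes of TXN, MT3 and PPARGC1A were higher, with unadjusted p of 0.0429, 0.0403 and 0.0271 in limma and overlapping groups.

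Of the glutathione genes, 6 of 25 listed were tested, 2 with differences above 0 and 4 below, with a median of -0.19. IDH1, a cytosolic dehydrogenase that supplies the NADPH used by both NADPH oxidases and glutathione reduction, had levels of 2.74, 2.79 and 3.19 in hypoxia replicates 1 to 3, against 3.65, 4.14, 4.27 and 3.54 in control replicates 1 to 4. All hypoxia fetuses were below all controls, with a log2 difference of -0.996 (SE 0.22, limma adjusted p = 0.145). GSTM3, a glutathione transferase of brain and testis, had levels of 2.52, 2.15 and 2.49 in hypoxia replicates 1 to 3, against 1.96, 1.97, 2.02 and 1.87 in control replicates 1 to 4. Here all hypoxia fetuses were above all controls, with log2 differences of 0.43 (SE 0.12, limma adjusted p = 0.202) and 0.48 (SE 0.13, limma adjusted p = 0.2) for its 2 probes. GSTA1, another glutathione transferase, had 0.52 (SE 0.25, limma adjusted p = 0.353) with overlapping groups, 0.88 against control slide 2 alone and 0.15 against control slide 3 alone, and its other probe had 0.21. The glutaredoxins GLRX and GLRX2, which reduce protein disulphides with glutathione, had -0.24 and -0.65 with overlapping groups, and the glutathione peroxidases, which share the peroxide substrate of catalase, were not analysed here.

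Both thioredoxin genes measured lay close to 0 with their brighter probes and did not pass the test. TXN, the thioredoxin that reduces peroxiredoxins, had a log2 difference of 0.12 (SE 0.12, limma adjusted p = 0.644) with its brighter probe and 0.35 (SE 0.14, limma adjusted p = 0.304) with the other. TXNIP, the inhibitor of thioredoxin, had 0.04 (SE 0.19, limma adjusted p = 0.934) and 0.28 (SE 0.15, limma adjusted p = 0.406) with its 2 probes. With 1 array left out, TXN ran from 0.04 to 0.23. These were 2 of 15 listed genes.

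Genes of metal and haem handling lay mostly above 0 without passing the test. Of 18 listed genes 4 were tested, 3 above 0 and 1 below, with a median of 0.21. MT3, a zinc- and copper-binding metallothionein of brain, had 0.35 and 0.42 with its 2 probes (SE 0.17 for each, limma adjusted p = 0.353 and 0.297), and its brighter probe 0.22 without control replicate 3. FTH1, the iron-storing ferritin heavy chain, had 0.16 with its brightest probe and 0.21 and 0.01 with the others. With quantile normalization the brightest probe had -0.0037 and with normexp -0.07, so its sign depends on the scaling. TF, the iron carrier transferrin, had 0.26 (SE 0.33, limma adjusted p = 0.725), with 0.09 to 0.51 when 1 array was left out, and the copper oxidase CP had -0.02.

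The list of other enzymes and regulators tied to reactive oxygen or nitrogen species gave 4 differences above 0 and 2 below among 6 tested of 14 listed, with a median of 0.11. PPARGC1A, a coactivator of mitochondrial genes known from mouse cells to raise SOD2 and catalase, had 0.34 (SE 0.16, limma adjusted p = 0.345), with 0.43 and 0.19 for its other probes and 0.22 without hypoxia replicate 3. NOS3, the endothelial nitric oxide synthase, had -0.33 (SE 0.18, limma adjusted p = 0.401), and -0.12 without hypoxia replicate 1. XDH, the xanthine dehydrogenase that can act as a superoxide-making oxidase, had 0.33 (SE 0.33, limma adjusted p = 0.648) and was well above background on 5 of 7 arrays. Its difference was 0.07 without control replicate 1, 0.10 without hypoxia replicate 1 and 0.06 with normexp. NOS1 and NOS2, the neuronal and inducible nitric oxide synthases, had 0.02 and -0.09 with their brighter probes, and the other NOS1 probe, above background on 5 of 7 arrays, had 0.69 (SE 0.30, limma adjusted p = 0.326). The prostaglandin synthase PTGS2 had 0.19.

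**Figure D3:**
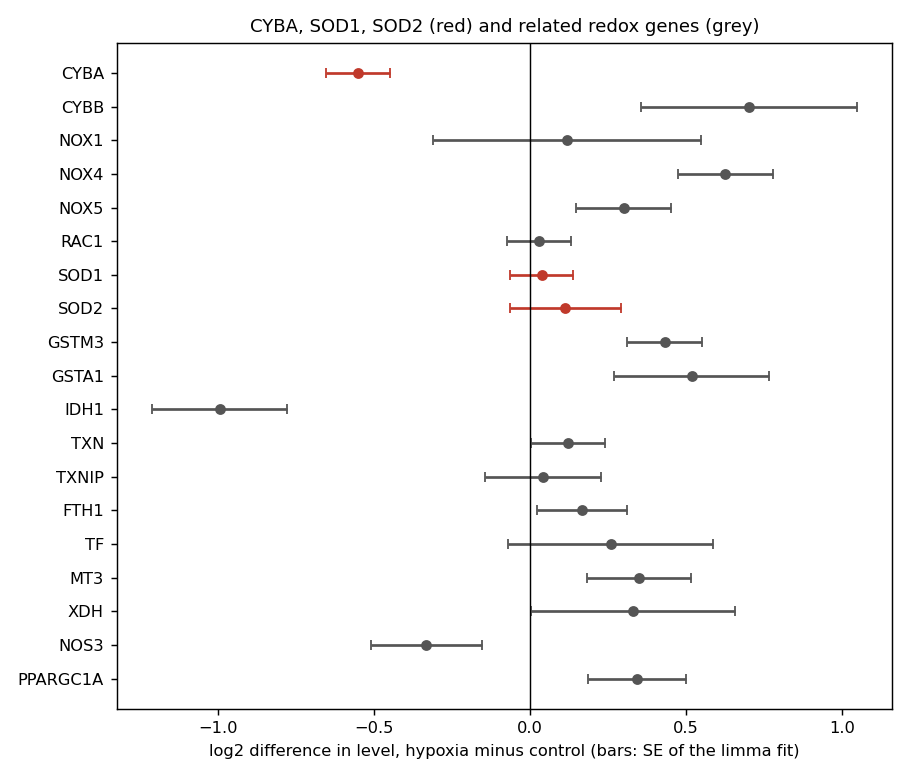
Log2 difference in level, hypoxia minus control, of CYBA, SOD1 and SOD2 (red) and of 16 related redox genes (grey), each from its brightest probe, with bars for the SE of the limma fit. CYBA, IDH1 and NOS3 lie left of 0, and IDH1 at -0.996 is farther from 0 than CYBA at -0.55.

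In whole tissue, fewer cells of a type and less RNA per cell cannot be told apart, so markers of cell types that can hold CYBA are set beside it. Of 16 listed microglia and macrophage genes, 4 were measured, and their summed level, in units of the 75th percentile signal, was 1.04 to 1.39 in hypoxia and 1.09 to 1.502 in control, with overlapping groups. ITGAM, TYROBP and CD14 had log2 differences of 0.22, 0.27 and 0.15, ITGB2 had -0.22, and the list median was 0.19. ITGB2, the brightest of the 4, made up most of the summed level. In limma 0 of the 4 passed an adjusted p under 0.05 or an unadjusted p under 0.05. Over all tested probes, 8.75% were higher and 6.91% lower at that unadjusted p. Differences above 0, the side opposite to CYBA, were seen for 3 of 4 genes and for 6955 of 12711 tested probes. With only 4 genes these counts are a description.

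Markers of connective tissue and most of those of vessels lay lower with CYBA. For meningeal and fibroblast genes, 8 of 10 were measured and 8 of 8 had differences below 0, with a median of -0.78 and a summed level of 13.3 to 20.2 in hypoxia against 18.3 to 40.5 in control. TIMP1, a metalloproteinase inhibitor, had -0.74 (SE 0.15, limma adjusted p = 0.124), and S100A4, a calcium-binding protein of fibroblasts and leukocytes, had -1.10 (SE 0.21, limma adjusted p = 0.116), with groups apart for both. For endothelial genes, 5 of 9 were measured and 4 of 5 lay below 0, with a median of -0.29. Their summed level was 0.727 to 1.1 in hypoxia against 0.963 to 1.38 in control. Most of it came from PECAM1, with a log2 difference of -0.26. The endothelial gene above 0 was FLT1, with 0.32 for its brightest probe. Another FLT1 probe had 0.56 (unadjusted p = 0.0174 in limma), with all hypoxia fetuses above all controls. The remaining FLT1 probes ran from -0.53 to 0.94 with overlapping groups. The only neutrophil marker measured of 9, LTF (lactoferrin), had -1.23 (SE 0.33, limma adjusted p = 0.19), with a level of 0.0145 to 0.0267 in hypoxia against 0.0353 to 0.0699 in control. In limma, 0 of these 14 connective tissue, endothelial and neutrophil markers passed an adjusted p under 0.05. At an unadjusted p under 0.05 in limma, 4 of 8 connective tissue, 1 of 5 endothelial and 1 of 1 neutrophil markers were lower. With the brightest probe of each gene 0 were higher, and 6.91% of all tested probes were lower. Differences below 0, whatever their p, were seen for 45.3% of all tested probes. The lists were chosen with earlier results of these data known, so these counts are a description and no test of the lists. The part of all these cell types in the CYBA result was not tested.

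Blood and astrocyte markers showed other patterns. Red cell genes, 3 of 9 measured, summed to 12.9 to 17.5 in hypoxia, inside the control range of 4.14 to 37.0. Nearly all of this sum came from HBB. The log2 difference was 0.67 for HBB, -0.33 for AHSP and -0.63 for CA1, with a list median of -0.33. Astrocyte genes, 7 of 9 measured, had a median of 0.45 and 6 of 7 above 0, with a summed level of 107.8 to 121.9 in hypoxia against 96.6 to 134.8 in control. At an unadjusted p under 0.05 in limma, SLC1A2, GJA1 and SLC4A4 were higher and VIM lower, each with groups apart for its brightest probe. Over all tested probes, 8.75% were higher and 6.91% lower at that p, and groups were apart for 8.75% and 7.38%. Differences above 0 were seen for 6955 of 12711 tested probes. The other VIM probe (-0.47) and the other GJA1 probes (0.32 to 0.68) had overlapping groups. Of the other SLC1A2 probes, the one with 0.38 overlapped and the one with 0.86 did not. In limma 0 of the 7 passed an adjusted p under 0.05. The mean of the 7 genes, each centred on its own mean, was 0.101 to 0.229 in hypoxia and -0.312 to 0.092 in control, apart only by a narrow margin. The summed level overlapped. Most of that sum came from AQP4 and VIM, with log2 differences of 0.25 and -0.49, so it says little about the other genes. The list was chosen with earlier results of these data known, so this mean is a description. None of the markers measured was at 0: all were well above background on all 7 arrays except CA1 on 5 and NR5A1 on 4. The listed markers of neurons and oligodendrocytes were not analysed here.

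The genes whose levels followed each member most closely were taken from 851 other named genes by the correlation over the 7 arrays, as a description. For CYBA, which separates the groups, these were PLIN2, a lipid droplet coat protein (r = 0.970), PADI3, a peptidylarginine deiminase, RPL32, a ribosomal protein (r = 0.950), and CDK4, a cell cycle kinase (r = 0.940). With the group means removed, r was 0.54 for PLIN2, 0.65 for RPL32 and 0.41 for CDK4, lower than before. CYBA was picked for its group difference, so this fall follows largely from that choice. The log2 differences of PLIN2, RPL32 and CDK4 were -0.51, -0.64 and -0.20. PADI3 was well above background on 0 of 3 hypoxia and 3 of 4 control arrays, so its place among the 4 rests on background values in hypoxia and its r is not given.

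The closest genes of the dismutases kept most of their correlation without the group means. The group means of SOD1 and SOD2 lay only 0.04 and 0.11 apart, so removing them changed little, and the contrast with CYBA is no finding. SOD1 was followed most closely by FHL1, a LIM domain protein (r = 0.966), SLC1A3, an astrocyte glutamate transporter (r = 0.938), PTGER3, a prostaglandin E receptor (r = 0.900), and PI3, a protease inhibitor (r = 0.890), and r with the group means removed was 0.88 to 0.98. SOD2 was followed by PTGFR, the prostaglandin F receptor (r = 0.907), BMP7, a bone morphogenetic protein (r = 0.897), the serotonin receptor named 5HT2A in the files (r = 0.854) and GRIA2, an AMPA receptor subunit (r = 0.830), with 0.85 to 0.92 after the group means were removed. These 12 genes are the best of 851 on only 7 arrays.

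**Figure D4:**
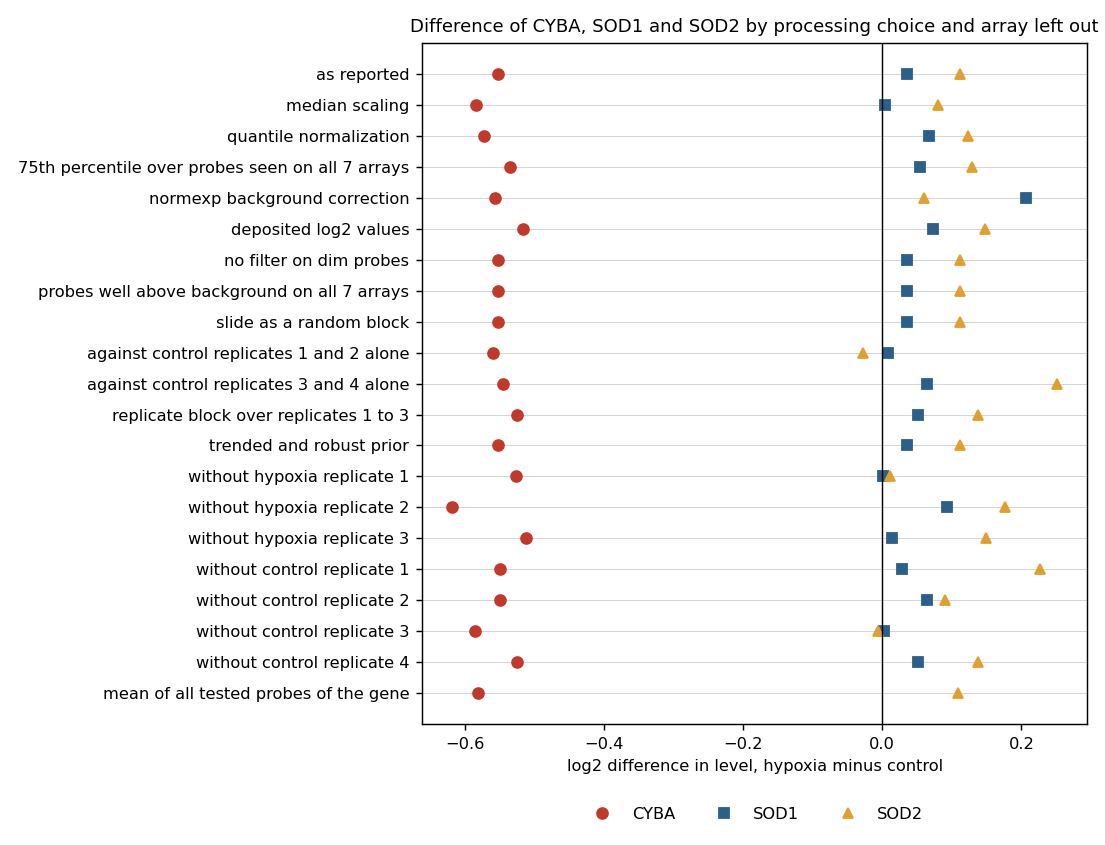
Log2 difference of CYBA (circles), SOD1 (squares) and SOD2 (triangles), hypoxia minus control, as reported and under each alternative processing choice or with 1 array left out. CYBA stays between -0.62 and -0.51, SOD1 between 0.00 and 0.21, and SOD2 crosses 0 against control replicates 1 and 2 alone and without control replicate 3.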

How the data were processed

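Per the file headers, Agilent Feature Extraction 10.1.1.1 turned each scan into spot intensity values, and its processed intensity is background-subtracted and trend-corrected. The table of deposited log2 values equals the log2 of this intensity within 5e-09 on every array and is not scaled between arrays: its column medians ran from 8.48 to 8.69 in hypoxia and from 8.31 to 8.87 in control. The sources used here do not give the submitters' own test.

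Each level is a log2 processed intensity from which the array's 75th percentile over non-control spots was subtracted. Control spots and 34 outlier values were dropped, saturated spots were kept, and repeat spots of a probe were averaged. The test covered the 12711 of 15008 probes that were well above background on 3 or more of the 7 arrays. The comparison of hypoxia with control used lmFit and eBayes of limma 3.58.1 under R 4.3.3, 2-sided, with Benjamini-Hochberg adjustment over these 12711 probes at 0.05. SEs and 95% intervals come from that fit, in which eBayes moderates the variance of each probe with that of all tested probes. A permutation test of 3 against 4 could not go below p = 0.0571 and was not used. The number of arrays limits the precision.

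Symbols came from the files and, by accession, gene number or synonym, from the RefSeq table of the ARS-UI_Ramb_v3.0 assembly, with 29 probes named by an older name or description. In all 13344 of 15008 probes stayed unnamed. Where a gene had several probes, its reported one is the brightest on average over the 7 arrays. The members and gene lists were chosen with earlier results of these data known. Genes named are all member probes, all measured NADPH oxidase and superoxide genes, the 3 with the smallest unadjusted p in each other redox list and the 4 most correlated with each member. Further members of the redox and marker lists were named after their values were seen. Some list members are counted but not reported here by name. Sample titles gave the groups and the replicate numbers. Alternatives were other scalings, normexp (offset 50), the deposited log2 values, stricter and no filtering of dim probes, slide as a random block, either control slide by itself, a replicate block, a trended and robust prior, the mean of a gene's probes, and each array left out.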

Additional observations from a re-analysis of the deposited data

How the results depend on the processing

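Of 20 alternatives each, CYBA kept its sign in 20 and SOD2 in 18, and SOD1 in 19 of 19. For CYBA, picked for its lower values and with groups apart, leaving out arrays could not change the sign. The limma adjusted p of SOD1 ran from 0.375 to 0.998 and that of SOD2 from 0.545 to 0.991. SOD2 changed sign against control replicates 1 and 2 alone (-0.027) and without control replicate 3, with a range of -0.0061 to 0.23 when 1 array was left out. The cause was not tested. With 1 array left out, CYBA ran from -0.62 to -0.51 and SOD1 from 0.0015 to 0.094. Small differences that changed sign were those of NOX1 (quantile -0.17, control replicates 3 and 4 alone -0.33, 1 array left out -0.16 to 0.51), RAC1 (median scaling -0.0032, control replicates 3 and 4 alone -0.0065, 1 array left out -0.046 to 0.067), TXNIP (control replicates 3 and 4 alone -0.13, 1 array left out -0.10 to 0.17) and FTH1 (quantile -0.0037, normexp -0.066).

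In limma, 2 probes of the whole array passed the adjusted threshold, with 1990 at an unadjusted p under 0.05. The count was 2 with median scaling and with slide as a random block (correlation -0.03). It was 0 with quantile normalization, with the percentile over probes seen on all 7 arrays and with no filter on dim probes (1946, 2022 and 1947 at an unadjusted p under 0.05), 35 with normexp, 10 with the deposited values, 25 with probes well above background on all 7 arrays and 57 with a trended and robust prior. With only control replicates 1 and 2 as the controls 232 probes passed, and with only control replicates 3 and 4, 4 probes. Leaving out 1 array gave 0 to 6, with 1329 to 2090 at an unadjusted p under 0.05. The share of higher probes among those at an unadjusted p under 0.05 was 55.9%. It was 67.3% with the deposited values and 61.0% with the percentile over probes seen on all 7 arrays, but 46.6% with median scaling, 47.0% with quantile normalization and 48.4% with normexp, so the direction of the majority depends on the scaling.

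A replicate block over replicates 1 to 3 gave 0 probes past the threshold (2127 at an unadjusted p under 0.05) and left the sign of CYBA, SOD1 and SOD2. Same-numbered arrays had deviations that correlated at 0.12, 0.09 and 0.11, and each hypoxia array correlated best with the control of its own number, a hint from the data and not from the design, so the numbers were not taken as pairs. CAT gave no value under any alternative, and SOD1, with 1 probe, has no mean over probes.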
